A study of Mus musculus with 8 samples.

Results

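The integrated stress response and the amino acid supply genes that it controls were followed through 35 listed genes in granulocyte-macrophage progenitors (GMP), the bone marrow cells that give rise to granulocytes and monocytes. The genes were taken by symbol: every probe of the array whose platform annotation carries one of the 35 symbols was used. Of the 35 genes, 33 had a probe, with 50 probes in all among the 25697 probes of the array, and Eif2s1 and Pycr1 had none. The 8 arrays, of the Illumina MouseRef-8 v2.0 design, held RNA of 4 samples of GMP from DKO mice, labelled as knockout for both Ssb1 and Ssb2, and 4 samples of GMP from wild-type mice, called Control. Nabp2 and Nabp1 encode Ssb1 and Ssb2, a related pair of proteins that bind single-stranded DNA. All mice were female C57BL/6, and the sort kept cells low for lineage markers, positive for c-Kit, negative for Sca-1 and high for both CD34 and CD16/CD32. The labels used here give no age, and do not say how the genes were deleted or in which cells. Whether each sample was a mouse of its own is not stated either, so the p-values below cover no more than the spread among these 8 samples, and that spread may be technical.

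In the integrated stress response, kinases that sense amino acid shortage, unfolded protein, double-stranded RNA or lack of heme phosphorylate the initiation factor eIF2, which slows most translation while raising translation of the transcription factor Atf4. Atf4, alone or with partners such as Ddit3 and C/EBP proteins, switches on enzymes and transporters that make, import and spare amino acids, together with feedback inhibitors that end the response. In blood progenitors the pathway is known as a response to nutrient and protein stress. An array reads the RNA of these genes and neither eIF2 phosphorylation nor Atf4 protein.

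The question asked of these genes was whether their RNA differed between DKO GMP and Control GMP. A gene was tested when at least 4 of the 8 arrays gave a probe of it a detection p-value under 0.05, called above background here, and of several tested probes the one brightest on average stood for the gene. This left 20 of the 33 genes, and their levels below are normalized intensities on the log2 scale, which cannot be set against each other between probes. By limma, with p-values adjusted after Benjamini and Hochberg over 10856 tested probes, 11 of the 20 tested genes were higher in DKO GMP at an adjusted p under 0.05, where 10.1% of all 7604 tested genes were higher. The genes that rose were the transcription factors Nupr1, Atf5 and Atf4, the glutathione-degrading enzyme Chac1, the serine and folate enzymes Mthfd2, Shmt2 and Psat1, the asparagine and proline enzymes Asns and Aldh18a1, and the transporters Slc7a11 and Slc7a5. Only 1 tested gene, the eIF2 kinase Eif2ak3, was lower, where 14.3% of all tested genes were lower, and 24.3% of them passed in either direction. The other 8 tested genes, among them Ddit3, Eif4ebp1 and Slc3a2, did not pass the threshold.

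The median log2 difference over the 20 tested genes was 0.60, against -0.03 over all genes tested, and 16 of the 20 differences were above 0. The 4 DKO values and the 4 Control values did not overlap for 13 of the 20 genes, in 11 of them with every DKO array higher, where 29.4% of all tested genes did not overlap, 12.9% with DKO higher and 16.5% with Control higher. Counted by probe, 13 of the 24 tested probes were higher and 2 lower, where 10.4% of all tested probes were higher, 12.4% lower and 22.7% either.

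**Figure D1:**
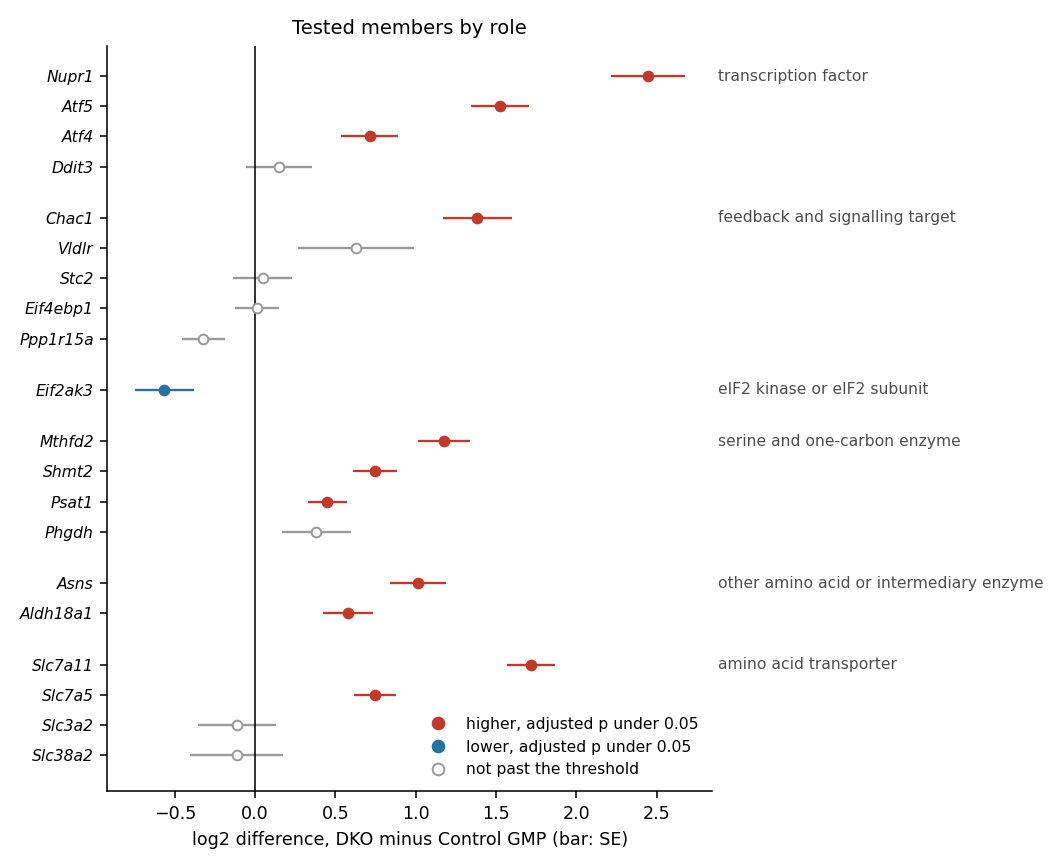
Log2 difference, DKO minus Control GMP, of each of the 20 tested genes, grouped by role, with horizontal bars for the standard error (SE). Filled points passed the threshold: 11 lie right of 0, from 0.45 for Psat1 to 2.44 for Nupr1, and Eif2ak3 lies left of it at -0.57. The point of Slc7a11 is its measured difference, although its Control signal was not above background.

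The size of the shift depended on how the arrays were brought to a common scale. Aligning the arrays by their medians in place of quantile normalization put the median difference of all tested genes at -0.43 and that of these 20 genes at 0.18, so the gap between them was 0.61, against 0.63 with quantile normalization. On that scale 4 of the 11 genes were still past the threshold, Nupr1, Slc7a11, Atf5 and Chac1, where 1.39% of all tested genes were higher and 23.6% lower. Of all genes called, 5.57% were higher, against 41.3% with quantile normalization. Slc7a11 was above background on 0 of 4 Control arrays and Nupr1 on 2 of 4, so these genes were tested mainly through their DKO signal.

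Of the 5 transcription factors listed, 3 of the 4 tested rose, with a median difference of 1.12. Nupr1, a small stress-induced regulator of transcription, was read by probe ILMN_2742042 at 7.69, 6.79, 7.27 and 7.56 on DKO arrays 1 to 4, against 4.46, 5.08, 4.70 and 5.29 on Control arrays 1 to 4. Every DKO array lay above every Control array, and the probe was above background on 4 of 4 DKO arrays and 2 of 4 Control arrays. The means were 7.33 ± 0.40 in DKO GMP and 4.88 ± 0.37 in Control GMP (SD, n = 4 each), a log2 difference of 2.44, or 5.44-fold, with an SE of 0.23 and a limma adjusted p of 0.000112. Because the Control signal was so near background, the size rested on the background correction. The main correction inferred its negative controls from the detection p-values. The rise was 1.94-fold without a correction and 2.67-fold with a correction that did not infer negative controls. In the authors' processed values it was 1.84-fold, and the call was kept in each.

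Atf5, a basic leucine zipper factor related to Atf4, read 10.61, 10.09, 10.18 and 10.56 in the DKO samples, against 8.60, 8.78, 8.71 and 9.25 in the Control samples. All DKO values were thus at least as high as 10.09 while no Control value passed 9.25. The difference was 1.53, or 2.88-fold, with an SE of 0.18 and a limma adjusted p of 0.000339. Atf4 itself, the central factor of the pathway, read 9.67, 8.92, 9.30 and 9.65 on the DKO arrays, against 8.64, 8.47, 8.77 and 8.80 on the Control arrays. The groups did not overlap, with DKO 2 closest to the Control range. Its means were 9.38 ± 0.35 in DKO GMP and 8.67 ± 0.15 in Control GMP, a rise of 0.71, or 1.64-fold, with an SE of 0.18 and a limma adjusted p of 0.0172. The Atf4 call was lost without Control 2, at a difference of 0.65 and a limma adjusted p of 0.0574, and with arrays aligned by medians, at 0.21 and 0.617.

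Ddit3, the factor also known as CHOP, which is tied to cell death under lasting stress, did not pass. Its probe read 7.90, 6.95, 7.47 and 7.20 in DKO GMP, against 7.52, 7.13, 7.29 and 6.99 in Control GMP, so the ranges overlapped nearly in full. The difference was 0.15 with a limma adjusted p of 0.638, and the other tested Ddit3 probe differed by -0.01 with an adjusted p of 0.967. Atf3, a factor induced by Atf4 in many cells, was above background on 0 of the 8 arrays. Its background-level readings were 4.32, 4.35, 4.42 and 4.33 in DKO GMP and 4.39, 4.55, 4.29 and 4.46 in Control GMP, and it was not tested.

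**Figure D2:**
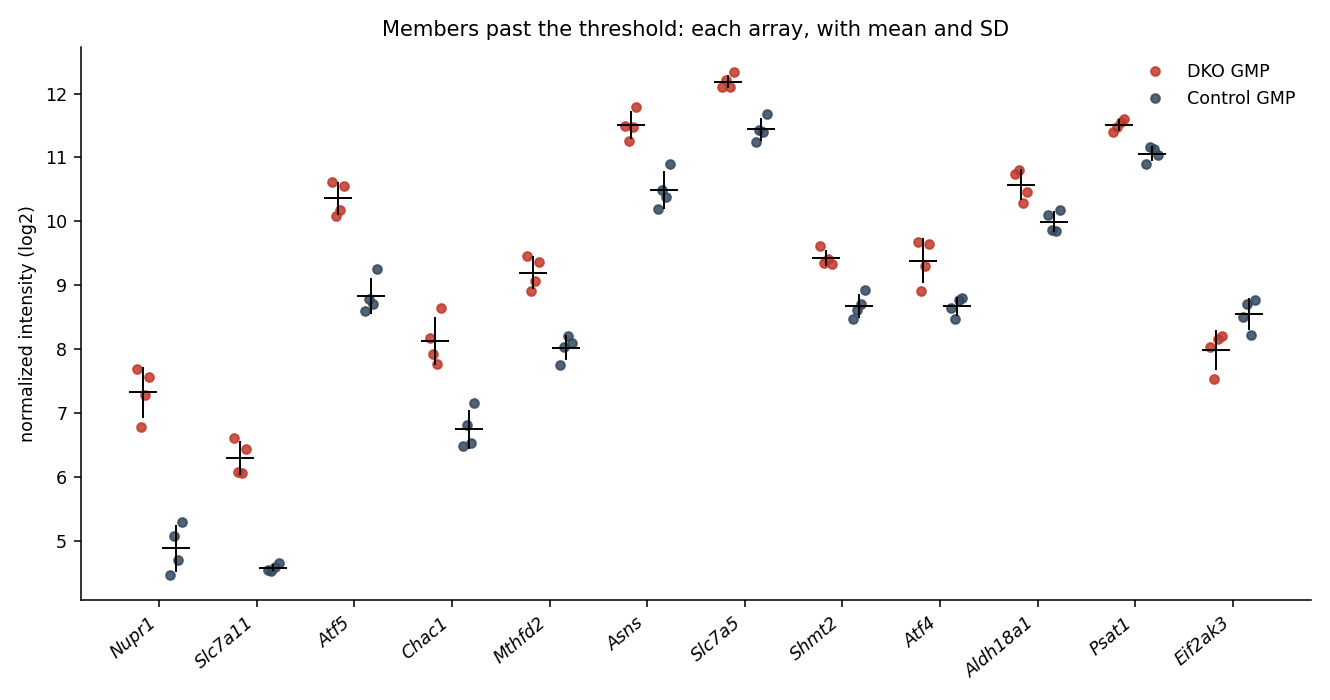
Normalized log2 intensity on each array for the 12 genes past the threshold, DKO GMP at left and Control GMP at right within each gene, with a horizontal line at the mean and a vertical line for the SD over 4 arrays. In none of the 12 genes do the groups overlap, and for Slc7a11 the Control points lie at background.

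Promoter sequence was set beside these values for the motif TGATGNAA, the short form of the C/EBP-ATF response element to which Atf4 can bind. The motif was searched on both strands of the 250 bases before the start site of each RefSeq gene of the mouse build GRCm38.p6, and 29 of the 35 genes had such a window. It was found in 8 of the 29, or 27.6%, against 1056 of 27025 genes, or 3.91%, over all windows. The 8 genes were Nupr1, Chac1, Asns, Slc7a11, Vldlr, Atf3, Pck2 and Pycr1. Of the 10 genes with a window that rose, 4 held the motif, against 1 of the 8 genes with a window that were tested and did not rise. Among the 11 genes with a window that were not tested or not on the array, 3 held it. The cyclic AMP response element TGACGTCA was found in 1 of the 29, Ppp1r15a, against 478 of 27025, or 1.77%. A match describes the letters in the window and does not show a bound site. The 35 genes were listed as genes of the Atf4 pathway and amino acid supply. The higher share of TGATGNAA among them may come from that choice and is no result of these arrays. The stretches around the motif are shown for the 4 genes that rose, and for Atf3 as a gene that holds it while its RNA was not above background. They run 5′ to 3′ on the gene's strand, and capitals mark the motif in either orientation.
Nupr1, chr7:126625547-126625606, minus strand: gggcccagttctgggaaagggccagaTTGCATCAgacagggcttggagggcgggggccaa
Chac1, chr2:119351023-119351082, plus strand: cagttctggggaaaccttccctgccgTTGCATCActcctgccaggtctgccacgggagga
Asns, chr6:7693210-7693258, minus strand: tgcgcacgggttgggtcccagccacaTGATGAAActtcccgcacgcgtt
Slc7a11, chr3:50443627-50443705, minus strand: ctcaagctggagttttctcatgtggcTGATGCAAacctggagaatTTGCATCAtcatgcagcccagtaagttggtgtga
Atf3, chr1:191183410-191183469, minus strand: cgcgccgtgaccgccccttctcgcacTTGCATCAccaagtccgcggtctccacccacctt

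In these stretches Nupr1, Chac1 and Atf3 share the letters TTGCATCA, and Slc7a11 holds them once in each orientation, from -66 to -59 and from -47 to -40 relative to the start site. The genes with the motif in their window thus ranged from a 5.44-fold rise to no signal above background.

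Among the feedback and signalling targets, 1 of the 5 tested rose. Chac1, an enzyme that degrades glutathione and is induced through Atf4, read 8.17, 7.92, 7.77 and 8.65 in the DKO samples, against 6.48, 6.80, 6.54 and 7.15 in the Control samples. Each DKO value was above each Control value. The means of 8.13 ± 0.38 in DKO GMP and 6.74 ± 0.31 in Control GMP differed by 1.38, or 2.61-fold, with an SE of 0.21 and a limma adjusted p of 0.0015, and the fold was 1.72 in the authors' processed values.

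The other targets of this group did not pass. Ppp1r15a, also called GADD34, which brings a phosphatase to eIF2 and so ends the response, read 6.33, 6.38, 6.12 and 6.35 in DKO GMP, against 6.64, 6.86, 6.47 and 6.52 in Control GMP. All DKO values were below all Control values, but the difference of -0.32 had a limma adjusted p of 0.105. It passed with arrays aligned by medians, at -0.78 with a limma adjusted p of 0.0355, and with array weights, at -0.43 and 0.039. Eif4ebp1, a repressor of cap-dependent translation, differed by 0.01 with a limma adjusted p of 0.955. Stc2, a secreted glycoprotein, differed by 0.05 with a limma adjusted p of 0.88.

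Vldlr, a lipoprotein receptor, was dim and scattered, at 4.62, 5.47, 6.65 and 5.76 in DKO GMP against 5.49, 4.96, 4.52 and 5.02 in Control GMP. DKO 3 was the highest and the groups overlapped through DKO 1 and DKO 2, with a difference of 0.63 and a limma adjusted p of 0.237. Without DKO 1 it passed, at a limma adjusted p of 0.0396. Trib3, a pseudokinase that holds Atf4 in check, and Sesn2, a sestrin that restrains growth signalling under amino acid shortage, were above background on 0 of the 8 arrays and were not tested.

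Of the kinases that phosphorylate eIF2, only Eif2ak3 was tested among the 35 genes. Eif2ak3, or PERK, the kinase that senses unfolded protein in the endoplasmic reticulum, read 8.04, 7.53, 8.16 and 8.21 on the DKO arrays, against 8.51, 8.71, 8.22 and 8.77 on the Control arrays. The groups did not overlap, although DKO 4 and Control 3 were almost equal. The means were 7.99 ± 0.31 in DKO GMP and 8.55 ± 0.25 in Control GMP, a difference of -0.57, or 1.48-fold lower, with an SE of 0.18 and a limma adjusted p of 0.0485. This call was at the edge of the threshold: it was lost on leaving out any array but Control 3, with differences between -0.63 and -0.41 and limma adjusted p-values between 0.0512 and 0.127. With the replicate number as a block the adjusted p was 0.0714. Eif2ak4, or GCN2, the kinase that senses uncharged tRNA, was above background on 0 of the 8 arrays, so its level was not measured.

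The enzymes that make serine and pass its carbon to folate rose together in 3 of the 4 tested, with a median difference of 0.60. Mthfd2, the mitochondrial folate dehydrogenase, read 9.45, 8.91, 9.06 and 9.37 in DKO GMP, against 7.75, 8.03, 8.21 and 8.10 in Control GMP. Every DKO sample was higher than every Control sample, with means of 9.20 ± 0.26 in DKO GMP and 8.02 ± 0.20 in Control GMP. The rise of 1.18, or 2.26-fold, had an SE of 0.16 and a limma adjusted p of 0.000851. Shmt2, which splits serine into glycine and a folate-bound carbon in mitochondria, read 9.61, 9.34, 9.41 and 9.33 in DKO GMP, against 8.47, 8.61, 8.71 and 8.92 in Control GMP. The DKO values were tightly grouped and all above the Control values. The means of 9.42 ± 0.13 in DKO GMP and 8.68 ± 0.19 in Control GMP gave a 1.68-fold rise with a limma adjusted p of 0.00363. The other Shmt2 probe rose by 0.72 with a limma adjusted p of 0.021, which was lost without Control 1, Control 2 or Control 3, at differences between 0.66 and 0.70 and adjusted p-values between 0.0537 and 0.0637.

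Psat1, the aminotransferase of serine synthesis, had a smaller rise. It read 11.40, 11.48, 11.56 and 11.60 in the DKO samples, against 10.90, 11.17, 11.14 and 11.03 in the Control samples, with no overlap and little spread in either group. The difference was 0.45, or 1.36-fold, with an SE of 0.12 and a limma adjusted p of 0.023. Without DKO 4, Control 1 or Control 4 the call was lost, at differences of 0.42, 0.39 and 0.44 and limma adjusted p-values of 0.0544, 0.0763 and 0.0582. Phgdh, the first enzyme of serine synthesis, read 9.64, 10.45, 9.96 and 9.98 in DKO GMP, against 9.55, 9.22, 10.11 and 9.63 in Control GMP. Control 3 was higher than all DKO samples but DKO 2, and the difference of 0.38 had a limma adjusted p of 0.228. Psph, the phosphatase that ends serine synthesis, and Aldh1l2, a mitochondrial folate enzyme, were above background on 0 of the 8 arrays.

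Both tested enzymes of other amino acids rose. Asns, which makes asparagine and is a standard readout of Atf4 activity, read 11.49, 11.26, 11.48 and 11.79 in DKO GMP, against 10.19, 10.49, 10.38 and 10.89 in Control GMP. No Control value reached the lowest DKO value. The means were 11.51 ± 0.22 in DKO GMP and 10.49 ± 0.30 in Control GMP, a rise of 1.02, or 2.02-fold, with an SE of 0.17 and a limma adjusted p of 0.0026. A dimmer Asns probe, ILMN_3006123, read 9.90, 9.89, 9.76 and 9.92 in DKO GMP, against 8.37, 8.68, 8.46 and 8.73 in Control GMP. It rose by 1.31, or 2.47-fold, with a limma adjusted p of 0.000135, and kept its call with arrays aligned by medians, at 0.81 and an adjusted p of 0.0316, where the brighter probe did not, at 0.65 and 0.0916.

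Aldh18a1, which starts proline synthesis from glutamate, read 10.75, 10.80, 10.28 and 10.47 in the DKO samples, against 10.10, 9.86, 9.85 and 10.17 in the Control samples. The groups were close but did not overlap. The rise of 0.58, or 1.49-fold, had a limma adjusted p of 0.022, and was lost without Control 2, at 0.54 and an adjusted p of 0.069, and without Control 3, at 0.53 and 0.0583. Cbs and Cth, which make cysteine from homocysteine, and Pck2, the mitochondrial form of phosphoenolpyruvate carboxykinase, were above background on 0 of the 8 arrays.

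Of the amino acid transporters, 2 of the 4 tested rose. Slc7a11, the light chain of the exchanger that imports cystine for glutathione, read 6.60, 6.07, 6.06 and 6.44 in DKO GMP, against 4.54, 4.52, 4.60 and 4.65 in Control GMP. It was above background on all 4 DKO arrays and on 0 of 4 Control arrays, so the Control value is a bound. With the main background correction, by inferred negative controls, the rise was at least 2.42-fold, with a measured difference of 1.72, an SE of 0.15 and a limma adjusted p of 8.08e-05. That bound holds for this correction alone. The measured rise was 1.45-fold without a correction and 1.85-fold with a correction that did not infer negative controls. In the authors' processed values it was 1.40-fold, and the call was kept in each. As deposited, before any normalization, the intensities were 137, 178.9, 173 and 203.8 on the DKO arrays, against 132.6, 142.1, 134.4 and 135.8 on the Control arrays, so that DKO 1 lay within the Control range. The arrays were not on a common scale there. The median intensity over all probes was 112.7 on DKO 1, against 139.8 to 153.5 on the Control arrays.

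Slc7a5, the light chain of the main importer of leucine and other large neutral amino acids, was bright on every array. It read 12.11, 12.21, 12.10 and 12.33 in DKO GMP, against 11.25, 11.43, 11.40 and 11.69 in Control GMP, without overlap. The means were 12.19 ± 0.11 in DKO GMP and 11.44 ± 0.18 in Control GMP, a rise of 0.75, or 1.68-fold, with an SE of 0.13 and a limma adjusted p of 0.00316. Slc3a2, the heavy chain that carries both Slc7a5 and Slc7a11 to the cell surface, read 5.90, 5.05, 5.88 and 6.33 in DKO GMP, against 6.00, 6.16, 5.64 and 5.80 in Control GMP. Its ranges overlapped, DKO 2 being the lowest, and its difference of -0.11 had an SE of 0.24 and a limma adjusted p of 0.772.

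Slc38a2, a transporter of small neutral amino acids, was read differently by its probes. The brighter one had 9.49, 10.16, 10.23 and 9.54 in DKO GMP, against 10.27, 9.64, 9.31 and 10.65 in Control GMP, a difference of -0.12 with a limma adjusted p of 0.803. The dimmer probe ILMN_2955671 had 9.80, 8.87, 9.81 and 9.83 in DKO GMP, against 10.25, 10.19, 10.30 and 10.21 in Control GMP. It differed by -0.66, or 1.58-fold lower, with a limma adjusted p of 0.0426, and this call was lost without each Control array in turn, at adjusted p-values between 0.0804 and 0.0921. The neutral amino acid exchanger Slc1a5 and the arginine and lysine transporter Slc7a1 were above background on 0 of the 8 arrays. Slc1a4 was above background on 0 DKO and 2 Control arrays and Slc7a3 on 1 DKO and 2 Control arrays, and neither was tested.

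Low signal set which of the 35 genes could be compared. Of the 13 genes on the array that were not tested, 11 were above background on 0 of the 8 arrays, and for these no difference was detectable here in either direction. Of the 20 tested, 15 were above background on all 8 arrays. Nupr1 and Slc7a11 were tested mainly through their signal in DKO GMP, so a gene of this kind could enter the comparison only by being higher there. With detection required on all 8 arrays at a stricter detection p-value, under 0.01, 9 of 15 genes rose, where 13.7% of 5775 tested genes did.

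**Figure D3:**
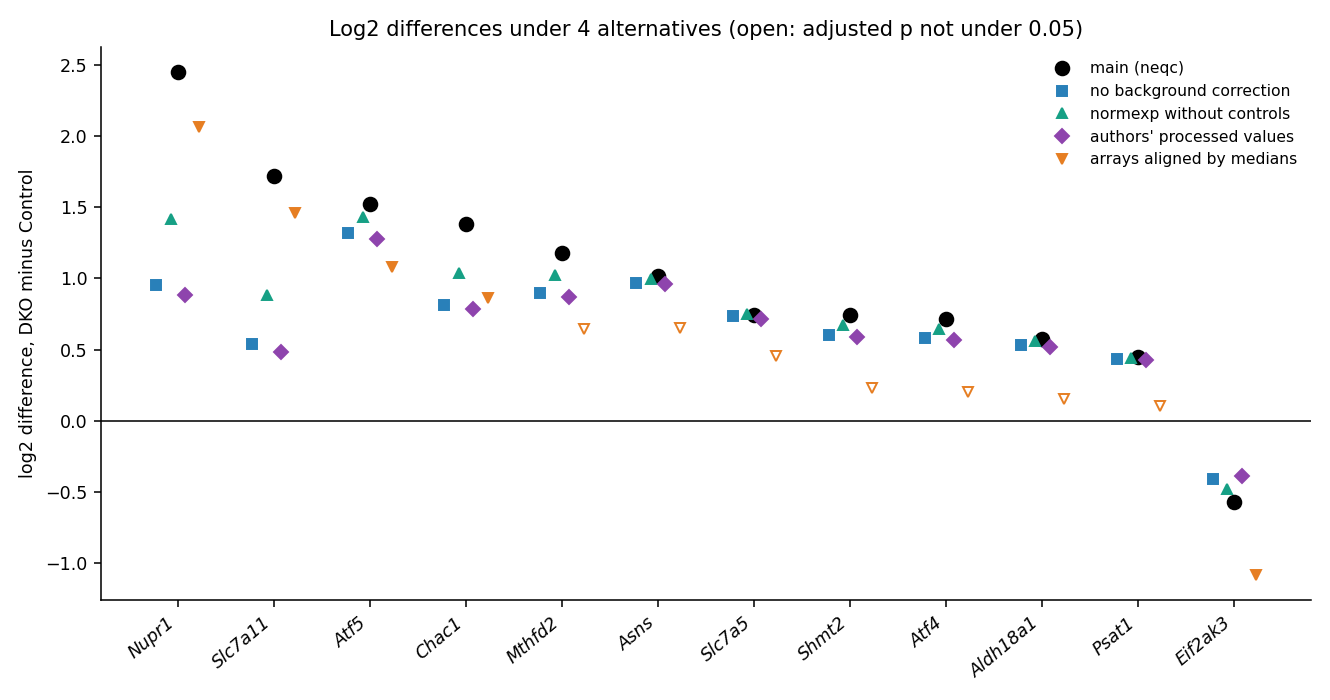
Log2 difference, DKO minus Control GMP, of the 12 genes past the threshold, with quantile normalization and background correction by inferred negative controls (black) and in 4 alternatives. Nupr1 and Slc7a11, the genes nearest background, have the widest range, from 0.88 to 2.44 and from 0.49 to 1.72. With arrays aligned by medians (open triangles where the adjusted p was not under 0.05), 7 of the 11 genes that rose did not pass.

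Further genes of the same pathway, from a list of which 68 were on the array and 53 were tested, were higher in 10 cases and lower in 5. These shares were 18.9% and 9.43%, where 10.1% of all tested genes were higher and 14.3% lower. The median difference of the 53 genes was 0.17, against -0.03 over all genes tested. Within this list, the subunits and regulators of eIF2 and of its exchange factor eIF2B were higher in 6 of 11 tested, with a median of 0.48. These calls rested on quantile normalization. With arrays aligned by medians, the only 2 genes of the list that were higher were Gclm and Bcat1, both outside this group. The other groups of the list had fewer rises. Of 12 Atf4 partners or further targets tested, 1 was higher and 1 lower, with a median of 0.21. Of 5 further one-carbon and glycine enzymes, 0 were higher and 1 lower. Of 15 further amino acid enzymes, 3 were higher and 1 lower, and of 10 further transporters 0 were higher and 2 lower. Eif2s2, the beta subunit of eIF2, read 10.96, 10.89, 11.09 and 11.12 in DKO GMP, against 9.89, 10.18, 9.89 and 10.24 in Control GMP. It was higher on every DKO array, by 0.96, or 1.95-fold, with an SE of 0.13 and a limma adjusted p of 0.000887. The Eif2s2 call was lost with arrays aligned by medians, at a limma adjusted p of 0.146.

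Eif2ak2, the interferon-induced kinase PKR that binds double-stranded RNA and phosphorylates eIF2, read 9.61, 8.96, 9.40 and 9.72 in DKO GMP, against 8.49, 8.67, 8.47 and 8.58 in Control GMP. DKO 2 was the nearest to the Control samples but still above them. The rise was 0.87, or 1.82-fold, with an SE of 0.17 and a limma adjusted p of 0.00481. The Eif2ak2 call was lost with arrays aligned by medians, at a limma adjusted p of 0.366. Eif2ak1, the kinase that senses lack of heme, differed by -0.02 with a limma adjusted p of 0.945. The other 4 genes of this group that rose were Eif2b1, Ppp1r15b, Eif2s3x and Eif2b5, by 0.67, 0.63, 0.53 and 0.48, and they are named after their values were seen.

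Outside eIF2, Gclm, the modifier subunit of the first enzyme of glutathione synthesis, rose by 1.17, or 2.26-fold, with a limma adjusted p of 0.000146. Bcat1, the cytosolic aminotransferase of branched-chain amino acids, had the largest rise of the list and is named after its values were seen. Its brightest probe read 5.69, 7.09, 7.29 and 6.66 in DKO GMP, against 5.51, 5.15, 4.92 and 5.58 in Control GMP, a difference of 1.39 with a limma adjusted p of 0.00993. DKO 1 lay just above the Control samples, the difference was 0.48 in the authors' processed values, and a dimmer Bcat1 probe differed by 0.06 with a limma adjusted p of 0.863. Gadd45a, a growth arrest gene induced by stress, rose by 0.93, or 1.90-fold, with an adjusted p by limma of 0.00236. Odc1, the first enzyme of polyamine synthesis, rose by 0.65, or 1.57-fold, with an adjusted p by limma of 0.00445. The genes that fell were Ahcy, the hydrolase of S-adenosylhomocysteine, by -0.82, the lysosomal transporter Slc38a9 by -0.81, Slc38a7, a glutamine transporter, by -0.76, Gpt2, the mitochondrial alanine aminotransferase, by -0.67, and Oat, ornithine aminotransferase, by -0.55. Their limma adjusted p-values were 0.0173, 0.0147, 0.00482, 0.048 and 0.0306. Gpt2 was above background on 2 DKO arrays and its groups overlapped, and Slc38a7 was above background on 1 DKO array. The Oat call was lost without DKO 1, DKO 2, Control 2, Control 3 or Control 4 in turn, at adjusted p-values between 0.0523 and 0.0783. The Gpt2 call was lost without DKO 1, DKO 2 or any Control array, at adjusted p-values between 0.0722 and 0.113.

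**Figure D4:**
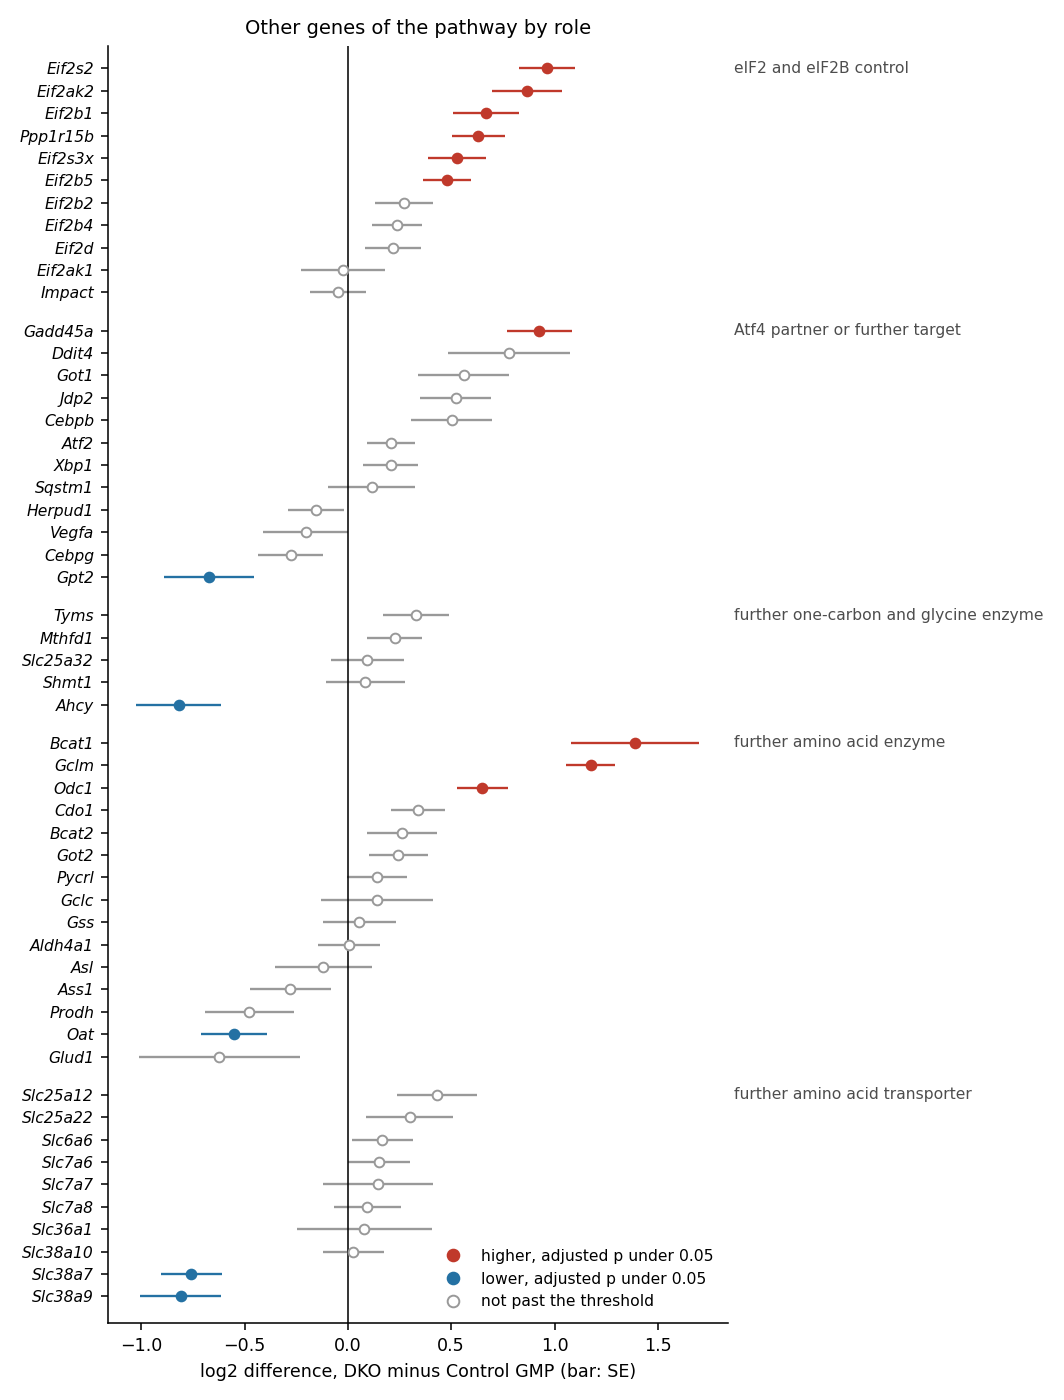
Log2 difference, DKO minus Control GMP, with SE bars, of the 53 tested further genes of the pathway, by role. In the eIF2 and eIF2B group at the top, 6 of 11 genes passed and lie right of 0, while 2 of the 10 transporters at the bottom passed and lie left of 0.

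Some lists of cell type markers moved beside these genes. Over all tested genes, 10.1% were higher and 14.3% lower. Of the monocyte and macrophage markers, 9 of the 10 tested fell. Of the 13 symbols listed, 11 were on the array, without Csf1r and Emr1, the latter an older symbol of the listed Adgre1. The summed deposited intensity of the 17 probes of this list was between 5507 and 13925 on the DKO arrays, against 27634 to 43685 on the Control arrays. This sum and those below are not normalized and also carry the brightness of each array. Mean intensity over all probes was 380 to 622 on the DKO arrays, lowest on DKO 1, against 605 to 736 on the Control arrays. GMP and primary granule markers, with Mpo, Elane, Prtn3 and Ctsg among the 8 tested, had 0 past the threshold by limma and 1 at an unadjusted p under 0.05, by the probe that stands for each gene, with sums of 136328 to 156222 in DKO GMP and 160977 to 168760 in Control GMP. Dimmer probes of these genes did pass: 2 of Mpo were lower, by -0.63 and -1.04, and 1 of Cebpe was higher by 0.61. Of the 6 tested mature neutrophil markers, Lcn2 and S100a9 rose, by 3.15 and 0.66, and the other 4 did not pass, with Ngp at 0.98, S100a8 at -0.04, Ltf at -0.38 and Camp at -0.40. The sums of this list were 44739 to 49707 in DKO GMP and 37696 to 46582 in Control GMP. Of the 4 erythroid markers tested, Slc4a1 and Epor fell, by -1.25 and -0.62, and Hba-a1 and Klf1 did not pass at -1.42 and -1.02, with sums of 892.1 to 1206 in DKO GMP and 1319 to 2263 in Control GMP. The B cell marker Cd79b and the dendritic cell marker Cd74 fell, by -0.77 and -1.45, and the other tested marker of each list, Vpreb1 at -0.76 and Siglech at -0.06, did not pass. The sums were 1154 to 1906 in DKO GMP and 2662 to 3781 in Control GMP for the B cell list, and 986 to 1198 in DKO GMP and 1251 to 1593 in Control GMP for the dendritic list. With the array median taken off each probe, the dendritic sums were -73.9 to -28.3 in DKO GMP and -9 to 211.3 in Control GMP. The dendritic sums thus read mostly background. Of the 5 megakaryocyte and platelet markers and the 6 basophil and mast cell markers tested, 0 passed, and 0 T cell markers were tested. A dimmer probe of the mast cell gene Cpa3 was lower by -1.31, with a limma adjusted p of 0.0406. The basophil and mast cell list had median deviations from the Control mean of -1.46, 0.10, 0.53 and -1.49 on DKO arrays 1 to 4, so these arrays differed among themselves. In sorted cells measured in bulk, fewer cells of a type and less RNA per cell cannot be told apart. The 50 probes of the stress response genes summed to between 17071 and 35388 on the DKO arrays and between 22830 and 30522 on the Control arrays. On the normalized scale, the median deviation of the 20 genes from the Control mean was 0.67, 0.57, 0.56 and 0.60 on DKO arrays 1 to 4, against -0.07, -0.02, -0.07 and 0.15 on Control arrays 1 to 4. The DKO arrays were close to each other in this measure and the groups did not overlap. Whether cell makeup differed between the groups, and what part it had in the rise of these genes, was not tested.

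**Figure D5:**
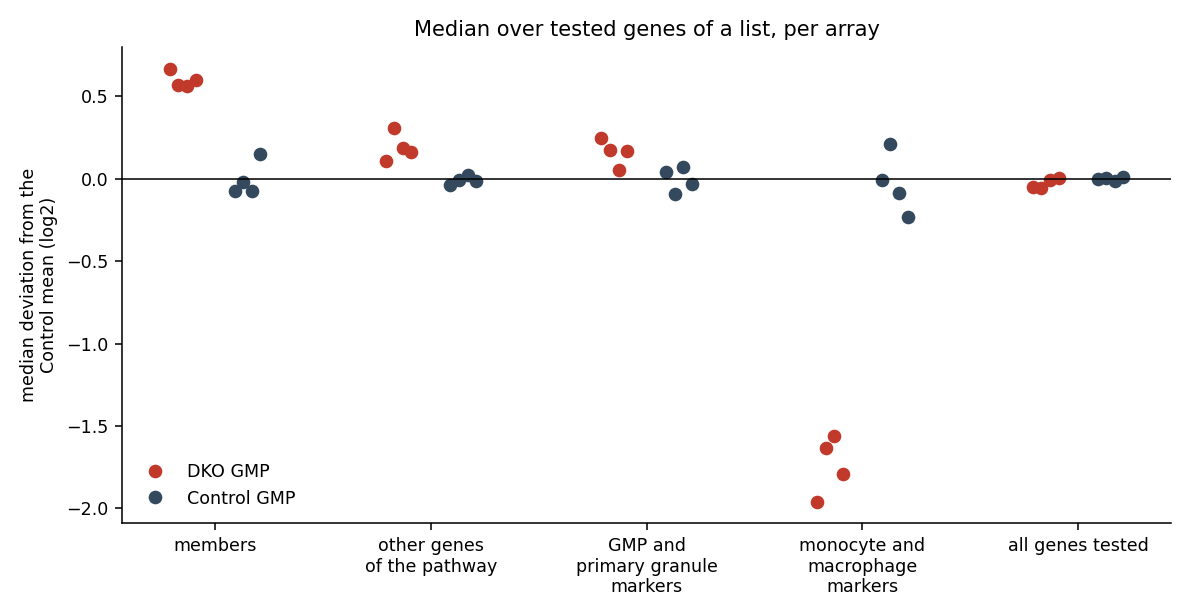
Median deviation from the Control mean over the tested genes of each list, 1 point per array, DKO GMP left of Control GMP. The stress response genes lie between 0.56 and 0.67 on the DKO arrays, the monocyte and macrophage markers between -1.96 and -1.56, and all genes tested near 0.

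The targeted genes and the arrays were checked as follows. Nabp2, which encodes Ssb1, read 7.27, 7.43, 6.42 and 7.45 in DKO GMP, against 8.96, 9.09, 8.13 and 9.10 in Control GMP by probe ILMN_2837156, 3.20-fold lower with a limma adjusted p of 0.00198. The signal of this probe was still above background on all 4 DKO arrays. A dimmer Nabp2 probe, above background on 3 DKO and 4 Control arrays, differed by -0.41 with an adjusted p of 0.355, and Nabp1 was above background on 0 of the 8 arrays and so checks nothing. The DKO arrays had between 9774 and 11103 probes above background, against 10740 to 11227 on the Control arrays, with the fewest on DKO 1 and DKO 2. Without DKO 1 and DKO 2 together, a choice made after seeing the data, 11 of the stress response genes rose, with Vldlr passing at 1.29 and a limma adjusted p of 0.0235 and Aldh18a1 not passing at 0.37 and 0.125. Eif2ak3 did not pass there, at -0.36 and 0.182. The correlation between arrays over probes was between 0.966 and 0.992 within groups and between 0.949 and 0.975 across them.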

How the data were processed

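RNA of 4 DKO and 4 Control GMP samples was labelled with biotin and hybridised in 1 colour, per the labels. The deposited table holds 1 linear intensity per probe and array, neither background-corrected nor normalized as read from its values, with a detection p-value beside it per the file headers. GenomeStudio is named, without a version or role, per the submitters' processing notes. The authors' processed log2 values, quantile-normalized and centred per probe as found by setting them against the intensities (slopes 0.961 to 0.966, centre unknown), served as an alternative. The sources used here do not give how the detection p-values were made.

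The intensities were corrected and quantile-normalized with neqc (offset 16) of limma 3.58.1 in R 4.3.3, and tested with lmFit and eBayes without covariates. The negative controls that neqc needs were inferred from the detection p-values. A probe not above background on any array of a group gives a lower bound on the fold, from the lowest signal above background on each array. All genes of the list were accounted for: array values are given for those past the threshold and for Atf4, Atf3, Ddit3, Trib3, Asns and Eif2ak4 where tested; of the further pathway genes, up to 5 per direction with the smallest p are named, with Eif2ak1 and Eif2ak2. Other genes with array values, Bcat1 among them, were chosen after their values were seen. The genes, lists and tests were chosen with earlier results of these data known. Promoter windows and their coordinates are RefSeq's, on GRCm38.p6. The procedure was tested on simulated data. Array number limits precision.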

Additional observations from a re-analysis of the deposited data

Results flagged for a closer look

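Over 76 sets of 4 arrays of the named genes, 4 held an array far from the other 3, by Dixon's test; chance flags about 1 in 20 such sets. DKO 2 was low for Eif4ebp1, at 11.6428 against 12.05 to 12.11 on the other DKO arrays. DKO 2 was also low for the dimmer tested Slc38a2 probe, at 8.86615 against 9.80 to 9.83 on the other DKO arrays. DKO 3 was low for Odc1, at 12.8607 against 13.05 to 13.09 on the other DKO arrays. Control 3 was low for Nabp2, at 8.1328 against 8.96 to 9.10 on the other Control arrays.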

How the results depend on the processing

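Between 9 and 12 stress response genes were higher in DKO GMP under each alternative but 1, leaving out each array in turn included (9 to 12); with arrays aligned by medians 4 were higher and 2 lower. The median difference of the tested genes was 0.18 with that alignment and 0.11 with dim probes left in, where genes at background enter. The count of lower genes, 1 as reported, was 2 with array weights and with every tested probe counted, and 0 with no filter, with a replicate block, without DKO 1 and DKO 2, and on leaving out arrays in turn (0 to 1). Every probe counted gave 13 higher. Of the further pathway genes, 2 were higher with arrays aligned by medians and 8 to 12 with each array left out; 3 were lower in the authors' processed values and without DKO 1 and DKO 2, 2 with detection on all arrays, and 3 to 5 with each array left out. Of all tested genes 10.1% passed with no filter, and 15.5% to 24.1% with each array left out.

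Of the 12 calls, Atf5 and Chac1 were kept in every alternative, Nupr1 and Slc7a11 in every one that tested them (not with detection on all arrays), and 0 changed sign; 2 genes that did not pass did so under some alternative. Signs turned only for genes that did not pass: with arrays aligned by medians for Ddit3 (-0.41), Phgdh (-0.11) and Eif4ebp1 (-0.25); without DKO 1 and DKO 2 for Eif2ak1 (0.0083) and Slc3a2 (0.22); and with each array left out in turn for Ddit3 (-0.025 to 0.29) and its other probe (-0.17 to 0.10), Eif2ak1 (-0.17 to 0.14), Eif4ebp1 (-0.032 to 0.13), the brighter Slc38a2 probe (-0.34 to 0.11), Slc3a2 (-0.29 to 0.14) and Stc2 (-0.079 to 0.19). The cause was not tested. The labels state no pairing, so the numbers were not taken as pairs. Same-numbered arrays deviated with correlations of 0.19, 0.03, -0.11 and 0.20, and arrays of unlike number with -0.17 to 0.12. The brighter Nabp2 probe was lowest on DKO 3 and on Control 3. These values do not settle whether the numbers mark pairs. The replicate block gave 11 higher and 0 lower. A slide block was not run, as no slide is given in the files used here. Signal near background limits Nupr1, Slc7a11, Vldlr, Stc2 and Slc3a2.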
